A study of Mus musculus with 4 samples.

Results

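The caspases, the parts of the apoptosome and the death receptors were described here through 10 genes (Casp1, Casp2, Casp4, Casp6, Casp8, Casp9, Apaf1, Cycs, Fas and Tnfrsf10b), of 18193 genes with a named probe set on the arrays. They were chosen by name, with earlier results of these data known. All 18 probe sets that carry a single one of these symbols were used, of 45037 probe sets in all. Each gene was represented by its lead probe set, the one with the highest mean log2 signal over the arrays. The samples were 2 lines of cells, 8534 and 8542, each grown from a mammary tumor of a different female MMTV-tTA/TOP-ICN1 mouse of mixed FVB/N and B6 background. In these cells the MMTV promoter drives the tetracycline transactivator, which switches on human ICN1, the active intracellular part of NOTCH1. The doxycycline group received 2 µg/ml doxycycline for 24 hours, which turns ICN1 off, and the untreated group kept ICN1 on. Each line gave 1 array per condition, so that n = 2 lines throughout, and no line without the transgene was analysed here, so that loss of ICN1 and doxycycline itself cannot be told apart.

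Caspases are cysteine proteases that are made as inactive precursors. Initiator caspases are switched on in large complexes, caspase-8 at ligand-bound death receptors such as Fas and caspase-9 on the apoptosome, a wheel that Apaf1 builds once cytochrome c, encoded by Cycs, has left the mitochondria. They cleave executioner caspases, which dismantle the cell, whereas the inflammatory caspases process cytokines of the interleukin-1 family and open pores in the membrane. Much of this control acts on the proteins, by cleavage and assembly, which an array of mRNA does not measure.

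The values were log2 MAS5 signals as deposited by the authors, which had been scaled to trimmed means of 97.7 to 101.8 units, and are printed here as signal units (2 to the power of the log2 value). The arrays had median signals of 29.1 to 30.5 units and 3' minus 5' log2 differences for β-actin of 0.25 to 0.30. Signals under 5.52 units, the lowest 20% of all values, were treated as near background. Hey1, a direct NOTCH target, was at 96.4 and 101 units in doxycycline-treated 8534 and 8542 cells, against 1138 and 762 units in untreated cells, and 4 of 5 NOTCH-responsive genes (Hey1, Dtx1, Myc and Nrarp, but not Hes1) were called and had fallen beyond 2-fold in each line. All 6 luminal epithelial markers were above 5.52 units on every array, such as Epcam at 3003 and 1792 units in treated cells of lines 8534 and 8542, against 2837 and 1663 units in untreated cells (not called, limma adjusted p = 0.659). Of these markers 3 were called, Krt8 and Krt18 higher (limma adjusted p = 0.0295 and 0.0163) and Krt19 lower (limma adjusted p = 0.00302). Changes are log2 signal with doxycycline minus untreated within a line, tested with limma with the line as a block, and p values were adjusted by Benjamini-Hochberg over 33778 probe sets (called at an adjusted p under 0.05).

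The promoters of Casp1, Casp4, Casp2 and Fas are shown because the results below turn on these genes: the neighbours Casp1 and Casp4 were higher by more than 2-fold in both lines, Casp2 was lower, and Fas had a higher signal in line 8534. The sequences are those of RefSeq on GRCm38.p6, plus strand, which is the strand of all these genes, 5′ to 3′, and for Casp4 that of the first of its 2 listed starts. The windows searched were the 250 bases before the listed start, of which the last 83 in Casp2 and the last 12 in Fas lie inside the annotated gene and are not printed. Capitals mark the matches to any of 7 motifs, searched on both strands.
Casp1, chr9:5298267-5298516: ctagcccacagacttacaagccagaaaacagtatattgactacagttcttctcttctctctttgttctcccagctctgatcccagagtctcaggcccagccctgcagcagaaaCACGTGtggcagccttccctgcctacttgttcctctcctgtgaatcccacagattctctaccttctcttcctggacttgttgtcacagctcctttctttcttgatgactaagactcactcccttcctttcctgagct
Casp4, chr9:5308599-5308848: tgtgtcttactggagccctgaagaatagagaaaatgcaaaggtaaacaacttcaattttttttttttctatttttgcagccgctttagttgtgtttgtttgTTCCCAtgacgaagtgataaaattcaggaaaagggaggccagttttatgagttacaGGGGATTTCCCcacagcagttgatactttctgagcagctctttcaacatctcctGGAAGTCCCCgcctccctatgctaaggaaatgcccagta
Casp2, chr6:42264735-42264901: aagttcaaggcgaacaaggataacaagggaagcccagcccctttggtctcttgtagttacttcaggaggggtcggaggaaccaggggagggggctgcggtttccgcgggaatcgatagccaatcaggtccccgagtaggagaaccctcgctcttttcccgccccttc
Fas, chr19:34290409-34290646: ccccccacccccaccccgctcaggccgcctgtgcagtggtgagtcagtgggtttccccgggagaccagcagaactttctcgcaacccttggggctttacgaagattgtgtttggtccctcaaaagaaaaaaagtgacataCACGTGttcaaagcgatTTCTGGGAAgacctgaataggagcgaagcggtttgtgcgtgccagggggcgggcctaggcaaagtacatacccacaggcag

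The motifs were GAAANNGAA (ISRE, the interferon response element), TTCNNNGAA (GAS, bound by STAT factors), the degenerate consensus of NF-kB, TGGGAA (RBPJ, the DNA-binding partner of ICN1), TTTGGCG (E2F), CACGTG (E-box, bound by MYC) and the degenerate consensus of NRF1, a factor of respiratory genes. Casp1 held a single match, an E-box, which 6.02% of 32851 promoters of this length held. Casp4 held the NF-kB motif (7.25%) at 2 places, as GGGATTTCCC with overlapping matches on both strands and as GGAAGTCCCC on the opposite strand, and an RBPJ motif on the opposite strand (21.6%). Casp2 held an RBPJ motif on the opposite strand, in the part of its window that lies inside the annotated gene, so that no letters of it are capital above. Fas held an E-box and a GAS motif (7.02%) whose last 6 bases are also an RBPJ motif. Of the other members, Casp6, Casp8, Casp9, Apaf1 and Cycs held none of the 7 motifs in this window, and Tnfrsf10b was not analysed here for want of an entry. These matches describe letters and not binding.

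The inflammatory caspases Casp1 and Casp4 had the largest average differences among the members, and Casp1 passed the test. Casp1 (1449265_at), the protease of the inflammasome that matures interleukin-1β, had a signal of 56.9 units in doxycycline-treated and 17.4 units in untreated 8534 cells. In 8542 cells it had 44.3 units with doxycycline and 4.36 units without. Both treated arrays lay above both untreated arrays, and the untreated 8542 array was near background. The fold change was 3.27 in line 8534 and 10.2 in line 8542, or 8.03 in line 8542 with the untreated signal raised to 5.52 units. On the log2 scale Casp1 rose by 2.53 ± 1.16 on average (mean ± SD, n = 2 lines) and was called (limma adjusted p = 0.0231). The call ended without the block (limma adjusted p = 0.26), without the expression filter (limma adjusted p = 0.055) and without the intensity trend of the variance model (limma adjusted p = 0.253). Leaving out the untreated array of line 8542 gave a log2 fold change of 1.53 and leaving out that of line 8534 gave 3.53, both without the block and not called.

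Casp4 (1449591_at), the mouse sensor of cytosolic lipopolysaccharide also known as caspase-11, was higher in both lines but was not called. It was at 36.0 units in doxycycline-treated and 11.2 units in untreated 8534 cells, and at 10.8 and 2.25 units in treated and untreated 8542 cells. The treated 8542 array lay below the untreated 8534 array. The fold change was 3.2 in line 8534 and 4.78 in line 8542, or 1.95 in line 8542 with the untreated signal raised to 5.52 units. The average log2 difference of 1.97 ± 0.41 (SD, n = 2 lines) was not called (limma adjusted p = 0.149), with a 95% interval of 0.32 to 3.62 before adjustment.

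Casp1 and Casp4 lie next to each other on chromosome 9 of GRCm38.p6, at chr9:5298517-5307281 and chr9:5308849-5336791, 1567 bases apart. They were the only members past 2-fold in both lines, the rule of the study's methods. That is 2 of 10, against 3.09% of 18193 lead probe sets that were more than 2-fold higher in both lines, and no member was more than 2-fold lower (4.42% of lead probe sets). In limma, 1 member was called higher (Casp1) and 1 lower (Casp2), against 4.76% and 6.95% of 15070 genes tested. Over the 18 probe sets of the members, 1 was called higher and 2 lower (Casp2 and 1 set of Cycs), against 3.69% and 5.54% of 33778 probe sets. So few calls were near the background and are no result about the group.

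**Figure D1:**
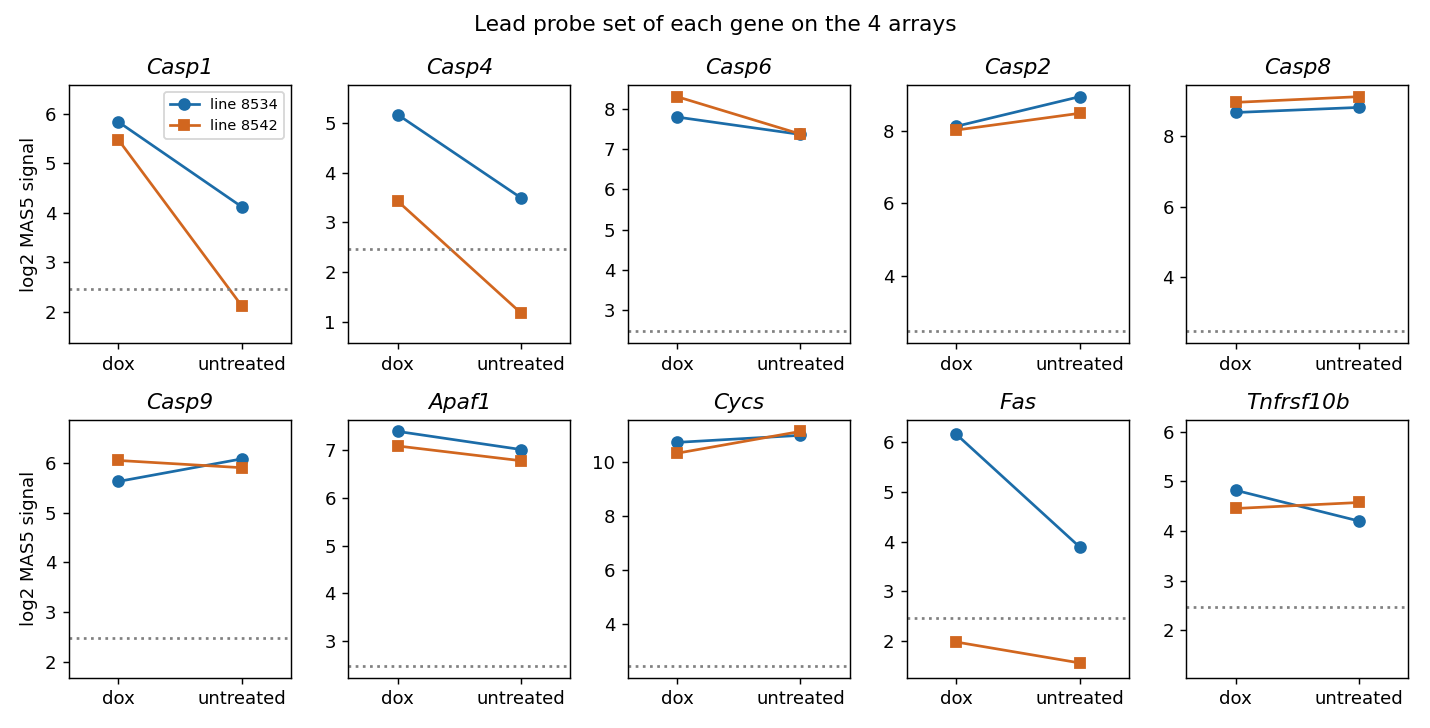
Log2 MAS5 signal (y axis, its range set per panel) of the lead probe set of each of the 10 genes on doxycycline-treated (dox) and untreated arrays. Points are single arrays, those of a cell line are joined, and 20% of all values on the arrays lie under the dotted line (2.47); Casp1 reached 56.9 and 44.3 units with doxycycline, and both Fas values of line 8542 lay under the dotted line.

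Casp1 and Casp4 are also genes of leukocytes, so markers of other cell types were read beside them. Of 9 leukocyte markers with a probe set, none was called in either direction by limma (7 tested), 5 were higher in both lines, and their summed lead signal was 659 and 360 units in treated 8534 and 8542 cells, against 468 and 349 units in untreated cells. The lead probe set of Ptprc, the defining CD45 gene, was at 6.92 and 6.08 units in treated and 7.2 and 7.19 units in untreated cells of lines 8534 and 8542. The other set of Ptprc was higher in both lines, at 13.0 and 7.63 units in treated and 6.59 and 3.22 units in untreated cells. Neither set reached the expression filter. Cd3e, of T cells, was at 8.24 and 8.49 in treated and 6.7 and 10.7 units in untreated cells. No marker was listed at 0, and Lyz2, of macrophages and neutrophils, was at 214 and 32.2 units in treated and 101 and 22.5 units in untreated cells (limma adjusted p = 0.0984). Line 8534 carried fibroblast markers at a summed 877 units with doxycycline and 696 units without, against 147 units in both conditions in line 8542. None of the 6 fibroblast markers was called, 2 were higher in both lines, 1 was lower in both and 3 differed in direction. The lower one, Pdgfra, was more than 2-fold lower in each line. It was at 3.63 and 9.74 units in treated 8534 and 8542 cells, against 21.0 and 23.6 units in untreated cells (limma adjusted p = 0.139). The 4 basal epithelial markers summed to 7504 units with doxycycline and 4451 units without in 8534 cells, and to 236 and 188 units in 8542 cells. Most of that sum was Acta2, at 6588 units in treated and 3012 units in untreated 8534 cells, and no basal marker was called. Krt14 was lower, at 869 and 10.0 units in treated 8534 and 8542 cells, against 1379 and 15.9 units in untreated cells. Of the 4 lead probe sets, 2 were higher in both lines, 1 was lower in both and 1 differed in direction. Of 4 endothelial markers 3 were tested and 1 was called, Tek, which was at 18.3 and 7.69 units in treated 8534 and 8542 cells, against 129.7 and 20.03 units in untreated cells (limma adjusted p = 0.0303). The endothelial sum was 106 and 136 units in treated cells, against 246 and 127 units in untreated cells. The part of other cells in the changes of Casp1 and Casp4 was not tested, and in these bulk RNA samples fewer cells of a type and less RNA per cell cannot be told apart.

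Casp6, an executioner caspase that cleaves nuclear lamins, was higher with doxycycline in both lines but was not called. Its lead probe set (1415995_at) was at 223 and 318 units in treated 8534 and 8542 cells, against 165 and 167 units in untreated cells. The untreated arrays of the lines were alike, and both treated arrays lay above them. The fold change was 1.35 in line 8534 and 1.91 in line 8542, or 0.68 ± 0.35 as a log2 average (mean ± SD of n = 2 lines; limma adjusted p = 0.0583). The other probe set (1458715_at) was at lower signals and did not repeat this, at 26.2 units with doxycycline and 18.5 units without in line 8534, and at 22.2 and 30.4 units in line 8542. Casp6 was called with a filter at the median level (limma adjusted p = 0.0409) and with low signals raised to 5.52 units (limma adjusted p = 0.0452). It was further from a call without the block (limma adjusted p = 0.335), without the trend (limma adjusted p = 0.34) and without the filter (limma adjusted p = 0.0891). Over the mean of its probe sets its log2 change was 0.35 (limma adjusted p = 0.355).

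Among the initiator caspases, Casp2 fell and Casp8 and Casp9 were not called. Casp2 (1448165_at), which is activated on the PIDD complex after DNA damage or failed cell division, had 281 and 262 units in doxycycline-treated 8534 and 8542 cells, against 496 and 361 units in untreated cells. Both treated arrays lay below both untreated arrays. The fall was 1.76-fold in 8534 cells and 1.38-fold in 8542 cells, with a log2 average of -0.64 ± 0.25 (mean ± SD of n = 2 lines; limma adjusted p = 0.0413). This call ended without the block (limma adjusted p = 0.332), without the filter (limma adjusted p = 0.0649) and without the trend (limma adjusted p = 0.331). Quantile normalization also ended it (limma adjusted p = 0.0583). With an array left out and no block, the log2 fold change of Casp2 ran from -0.87 to -0.41. The other parts of that complex did not pass the test. Pidd1 was at 52.6 and 69.9 units in treated 8534 and 8542 cells, against 112 and 108 units in untreated cells (limma adjusted p = 0.0561). Cradd, the adaptor RAIDD that joins Pidd1 to caspase-2, was at 59.8 and 78.4 units in treated cells, against 82.8 and 126 units in untreated cells (limma adjusted p = 0.141).

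Casp8 (1424552_at), the initiator at death receptors, was slightly lower in both lines and was not called. It was at 409 and 499 units in treated 8534 and 8542 cells, against 452 and 559 units in untreated cells. The treated and untreated ranges overlapped, and the lines differed by more than the conditions. Its log2 difference averaged -0.15 ± 0.01 (mean ± SD of n = 2 lines; limma adjusted p = 0.547), and the 95% interval before adjustment ran from -0.45 to 0.14, so that a fall of more than 1.37-fold lay outside it.

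Casp9, the initiator of the apoptosome, had 3 probe sets that differed in direction. The lead one (1437537_at) was at 49.6 units with doxycycline and 67.9 units without in line 8534, and at 66.4 and 60.0 units in line 8542. The set 1426125_a_at was at 37.8 and 21.1 units in treated and untreated 8534 cells and at 27.4 and 32.8 units in 8542 cells. The set 1457816_at was at 45.5 and 7.78 units in treated and untreated 8534 cells, 5.85-fold higher, and at 33.5 and 49.0 units in 8542 cells. In each set the difference had opposite signs in the lines, and in line 8534 the lead set was lower with doxycycline where the other sets were higher. None passed the test (limma adjusted p = 0.788, 0.73 and 0.445), so that no direction is given for Casp9.

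**Figure D2:**
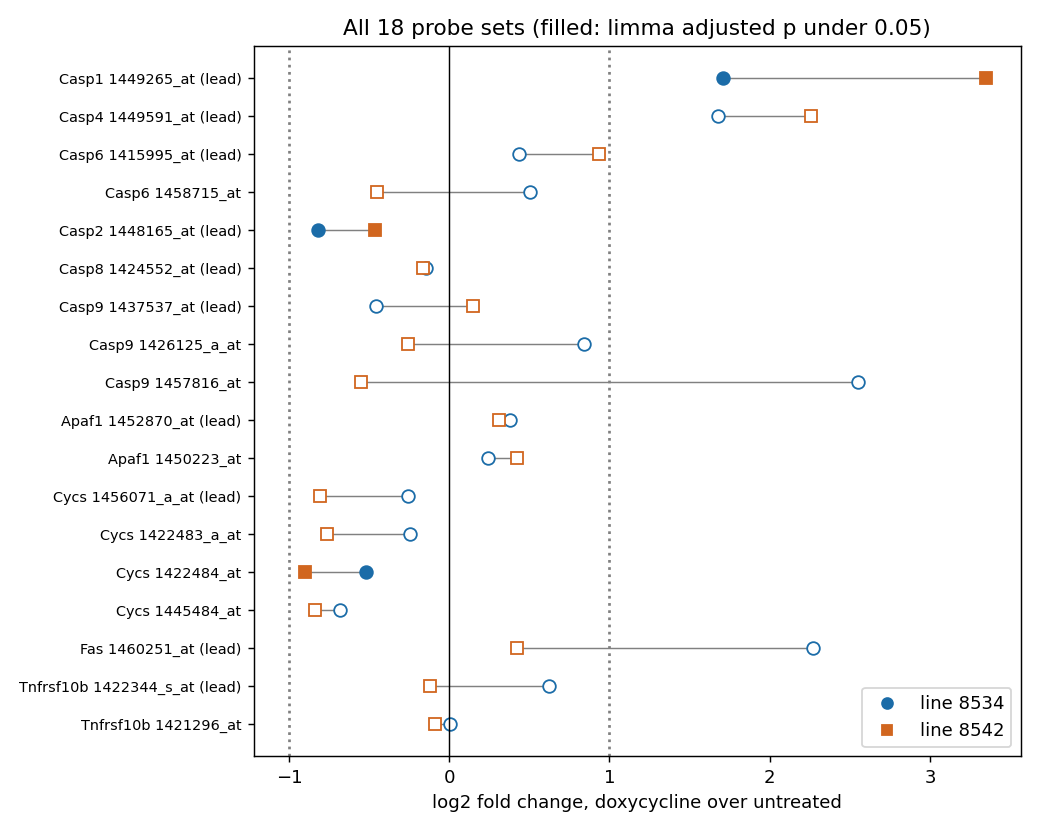
Log2 fold change (x axis, doxycycline over untreated) of all 18 probe sets of the 10 genes, 1 point per cell line, with dotted lines at 2-fold. Filled points mark probe sets with a limma adjusted p under 0.05, those of Casp1 (1.71 and 3.35), Casp2 (-0.82 and -0.46) and 1 of the 4 sets of Cycs (-0.52 and -0.90).

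Of the 2 other parts of the apoptosome, Apaf1 was higher and Cycs was lower in both lines, and neither lead probe set was called. Apaf1 (1452870_at), the scaffold that recruits caspase-9, was at 169 and 137 units in doxycycline-treated 8534 and 8542 cells, against 130 and 110 units in untreated cells. Its other probe set (1450223_at) gave 84.4 and 77.7 units with doxycycline, against 71.2 and 58.0 units without. In both sets each treated array lay above both untreated arrays, with mean log2 fold changes of 0.35 ± 0.05 and 0.33 ± 0.13 (SD, n = 2 lines). Neither passed the test (limma adjusted p = 0.292 and 0.421), and the 95% interval of the lead set, from -0.06 to 0.75 before adjustment, reached a 1.68-fold rise.

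Cycs encodes cytochrome c, an electron carrier of respiration that becomes the trigger of the apoptosome in the cytosol. Its lead probe set (1456071_a_at) was at 1675 and 1269 units in treated 8534 and 8542 cells, against 2005 and 2217 units in untreated cells. The 4 probe sets were all lower with doxycycline in both lines, with mean log2 fold changes of -0.53, -0.50, -0.71 and -0.76 from the highest to the lowest signal. One of them was called (1422484_at, 1.43-fold lower in 8534 cells and 1.87-fold lower in 8542 cells, limma adjusted p = 0.0272), and the lead set was not (1.2-fold and 1.75-fold lower, limma adjusted p = 0.0699). The lead set was called with a filter at the median level (limma adjusted p = 0.0457). It was not called without the block (limma adjusted p = 0.344), without the trend (limma adjusted p = 0.411) or without the filter (limma adjusted p = 0.131). Cycs has processed pseudogenes of near-identical sequence, and whether these probe sets detect them was not tested.

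Fas and Tnfrsf10b are death receptors, bound by Fas ligand and by TRAIL. Fas (1460251_at) was at 71.5 units in doxycycline-treated and 14.8 units in untreated 8534 cells, 4.83-fold higher. In 8542 cells it was at 3.93 units with doxycycline and 2.94 units without, both near background, so that no fold is given for that line. The treated 8534 array stood above the other arrays, of which the untreated 8534 array was the next. With signals raised to 5.52 units where they were lower, the log2 difference averaged 1.14 and was not called (limma adjusted p = 0.35). On the signals as deposited it was not called either (limma adjusted p = 0.353), and a difference between the lines could not be tested with 1 array per line and condition.

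Tnfrsf10b, the mouse TRAIL receptor, was at low signals on every array. Its lead probe set (1422344_s_at) was at 28.2 and 21.9 units in treated 8534 and 8542 cells, against 18.4 and 23.8 units in untreated cells. The other set (1421296_at) was at 20.2 and 11.2 units in treated cells, against 20.2 and 11.9 units in untreated cells. Neither set separated treated from untreated arrays (limma adjusted p = 0.785 and 0.976), and the interval of the lead set, from -0.70 to 1.20 before adjustment, allowed a change of more than 2-fold.

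**Figure D3:**
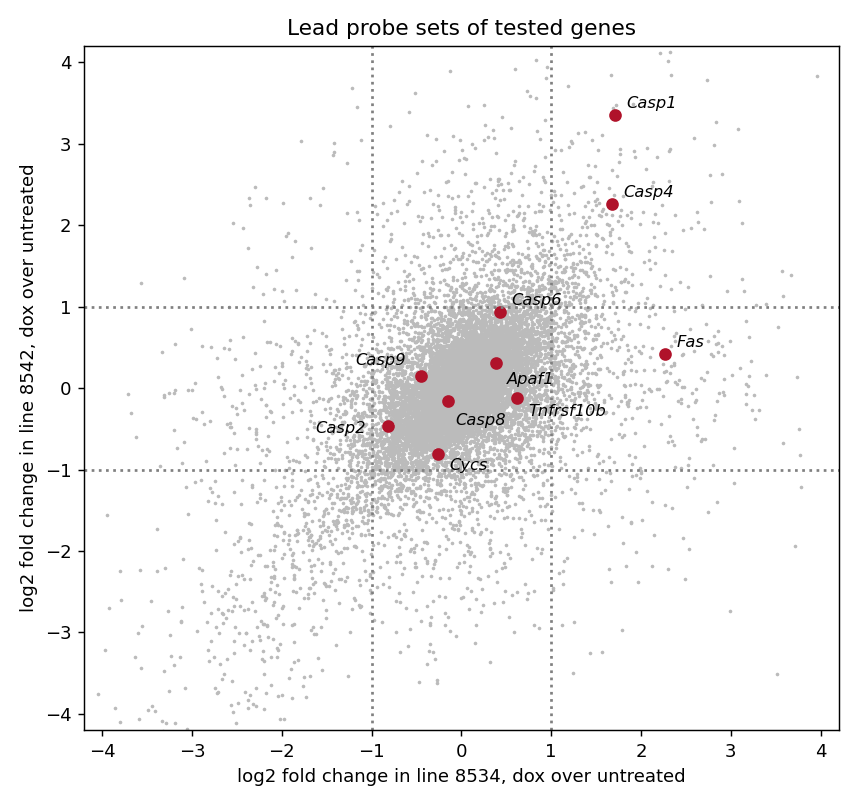
Log2 fold change (doxycycline over untreated) in line 8534 (x axis) against line 8542 (y axis) of the lead probe sets of 15070 tested genes (grey, 84 of them outside the range shown) and of the 10 members (red, named). Dotted lines mark 2-fold changes; Casp1 and Casp4 lie beyond them in both lines, and Fas in line 8534 only.

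Across the 10 lead probe sets, 5 had a positive difference in both lines (Casp1, Casp4, Casp6, Apaf1 and Fas, the last with both arrays of line 8542 near background), 3 were lower in both (Casp2, Casp8 and Cycs) and 2 differed in direction (Casp9 and Tnfrsf10b). Over all 18193 genes, 32.7% were higher and 31.9% were lower in both lines. Both treated arrays lay above both untreated arrays for 3 members (Casp1, Casp6 and Apaf1) and below them for 2 (Casp2 and Cycs), against 21.1% and 21.8% of all genes. The median log2 difference of the members was 0.41 in 8534 cells and 0.23 in 8542 cells, against 0.011 and 0.00014 for the median tested gene. The members were chosen with earlier results of these data known, so that this difference is no test of the group. All 18 probe sets passed the expression filter, but Casp4 and Fas passed only with their treated arrays, since the mean of their untreated arrays lay under it.

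The partners of these genes were read from lists of other caspases, mitochondrial and nuclear death factors, ligands, receptors, adaptors and inflammasome parts, of which 39 genes had a probe set and 37 were tested. One was called higher and 4 lower, against 4.76% and 6.95% of all genes tested, so that these counts were near the background. All these calls ended without the block and without the trend (limma adjusted p = 0.115 to 0.626 without the block). The largest of the called changes were in a decoy and a death receptor. Tnfrsf11b, the decoy receptor osteoprotegerin that binds TRAIL and RANKL, was at 104 and 51.7 units in doxycycline-treated 8534 and 8542 cells, against 14.6 and 5.36 units in untreated cells. It rose 7.13-fold in line 8534 and, with the untreated signal raised to 5.52 units, 9.36-fold in line 8542. On the signals as deposited it was called (limma adjusted p = 0.00311). Its other probe set was 1.5-fold and 2.59-fold higher without being called (limma adjusted p = 0.197). Tnfrsf21, the gene of death receptor 6, was at 265 and 30.6 units in treated 8534 and 8542 cells, against 1158 and 385 units in untreated cells. It fell 4.36-fold and 12.6-fold (limma adjusted p = 0.00239), and its other probe set fell 3.35-fold and 2.76-fold (limma adjusted p = 0.0021). Without the block and with the treated array of line 8534 or 8542 left out, Tnfrsf21 changed by -4.45 or -1.33 on the log2 scale and was not called. Of 9 receptors on this list the other 7 did not pass the test, Tnfrsf1a and Ngfr among them, and 5 had opposite signs in the lines.

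Of 7 mitochondrial and nuclear death factors, 2 fell and 5 did not pass the test, where 6.95% of all genes tested were called lower, and counts this small say nothing about the list. Diablo, which encodes the SMAC protein that mitochondria release to relieve caspases of their inhibitors, was at 318 and 414 units in doxycycline-treated 8534 and 8542 cells, against 1606 and 963 units in untreated cells. It fell 5.05-fold and 2.33-fold (limma adjusted p = 0.00517), and its other probe set fell 4.69-fold and 2.45-fold (limma adjusted p = 0.0101). Parp1, a DNA-break sensor and classical caspase substrate named here after its values were seen, fell 1.62-fold and 1.47-fold (limma adjusted p = 0.0289). Parp1 was at 237 and 460 units in treated 8534 and 8542 cells, against 383 and 677 units in untreated cells. With an array left out and no block, the difference between the lines enters its change. That change was -0.15 or -0.21 on the log2 scale without the treated array of line 8534 or the untreated array of line 8542. It was -1.04 or -1.11 without the untreated array of line 8534 or the treated array of line 8542. Those Parp1 values are of its lead probe set, and its other sets were also lower in both lines. One fell 2.37-fold and 1.93-fold (limma adjusted p = 0.00507) and another 1.63-fold and 1.81-fold (limma adjusted p = 0.022). The set with the lowest signal was 2.74-fold and 1.86-fold lower and was not called (limma adjusted p = 0.0778). Both Diablo and Parp1 were lower in each line, and the levels of their mRNA do not measure release from mitochondria or cleavage.

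Adaptors, ligands and the inflammasome together held 1 call. Of 10 adaptors and kinases of death complexes 1 fell, where 6.95% of all genes tested were called lower, so that this count was near the background. It was Casp8ap2, a protein of histone mRNA processing that also binds caspase-8, named after its values were seen (1.93-fold and 1.8-fold lower, limma adjusted p = 0.0146). The lead probe set of Fadd, the adaptor between Fas and caspase-8, was at 150 and 168 units in treated cells of lines 8534 and 8542, against 163 and 182 units in untreated cells. The other Fadd set differed in direction between the lines, at 5.96 and 75.3 units in treated and 68.0 and 61.2 units in untreated cells. Neither Fadd set was called (limma adjusted p = 0.732 and 0.276). None of 3 tested ligands passed the test, among them Fasl and Tnfsf10, the ligands of Fas and of the TRAIL receptor, and none of 6 tested inflammasome genes did. Il1a, a cytokine of the interleukin-1 family named after its values were seen, was more than 2-fold higher in both lines. It lay under the expression filter, at 12.6 and 13.9 units in treated and 2.68 and 3.11 units in untreated 8534 and 8542 cells. Both untreated signals were near background, and with these raised to 5.52 units Il1a rose 2.28-fold and 2.51-fold. Of 7 inflammasome genes with a probe set, 3 were higher in both lines, 1 was lower in both and 3 differed in direction. The lower one, Gsdmd, changed by -0.18 and -2.76 on the log2 scale in 8534 and 8542 cells, with its treated 8542 signal near background. Il1b changed by 0.02 and -0.70, and Il18 by 1.07 and -0.12. Both other caspases with a probe set, Casp12 and Casp14, did not pass the test.

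**Figure D4:**
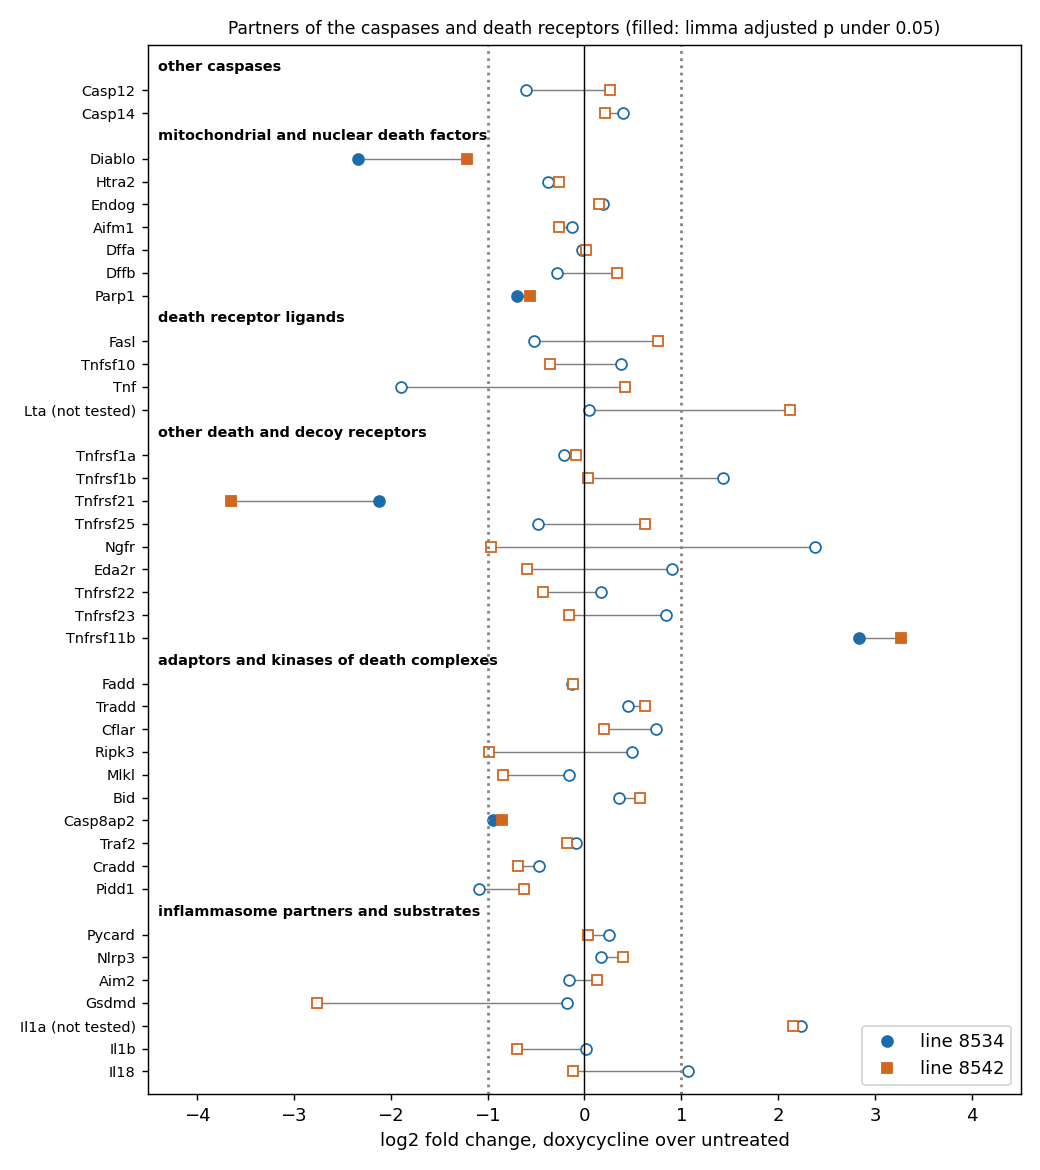
Log2 fold change (x axis, doxycycline over untreated) of the lead probe sets of 39 partner genes in 6 lists, 1 point per cell line, with dotted lines at 2-fold. Filled points mark a limma adjusted p under 0.05: Tnfrsf11b lies at 2.83 and 3.27, Tnfrsf21 at -2.12 and -3.65, and Diablo at -2.33 and -1.22.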

How the data were processed

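RNA of 4 samples was measured on Affymetrix mouse arrays. The authors ran MAS5 on the scans and deposited log2 signals. The 45101 probe sets make up the full array, whereas the methods name its A version, and the base of the logarithm was inferred from the values. Neither the MAS5 version nor the scaling target is given in the sources used here. The number of arrays limits the precision of every value.

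Of these, 64 control probe sets were not used. The platform annotation gave 1 symbol for 34945 probe sets, several for 932 and none for 9160, and only the first were named. The gene IDs of all 10 members matched RefSeq. The fit of line plus treatment in limma 3.58.1 under R 4.3.3 (eBayes with an intensity trend) took the 33778 probe sets whose mean log2 signal reached the 25th percentile (2.94), leaving 1 residual degree of freedom beside 6.18 prior ones. Lines pair the arrays because both come from the same cell line, and they deviated together (r = 0.36). Nothing says that arrays came from separate cultures, so the 2 lines are the only replicates. With 6.18 prior degrees of freedom against 1, p values rest mostly on the variance model shared by all tested probe sets. The spread of a probe set between the 2 lines enters them only in part. An exact test over the lines cannot go below p = 0.5. Alternatives were other filters, a floor and a pseudocount of 5.52 units, no trend, no block, quantile normalization, median centring, the mean of all probe sets of a gene, and arrays or lines left out. Genes were named by a rule: all members, NOTCH-responsive genes, and up to 4 genes per list past 2-fold in both lines and called. Other partners and cell type markers that are named were chosen after their values were seen. Members and lists were chosen with earlier results of these data known, and motifs and the promoters shown were chosen after the values were seen.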

Additional observations from a re-analysis of the deposited data

Results flagged for a closer look

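Casp9 and Tnfrsf10b were singled out because their lead probe sets moved in opposite directions in the lines, a difference that was not tested. The log2 difference of Casp9 was -0.45 in 8534 cells and 0.15 in 8542 cells, and that of Tnfrsf10b was 0.62 and -0.12.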

How the results depend on the processing

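The calls of members depended on the block, the filter and the variance model. Of 10 members, 2 were called with the line as a block, and none without the block, without the filter or without the trend (limma; 4, 5 and 2 members at an unadjusted p under 0.05), whereas quantile normalization left 1. With each array left out in turn, in a fit without the block in which the lone array of a condition is assumed to vary like the others, 0 to 0 members were called (2 at an unadjusted p under 0.05 each time). Over all probe sets, 3117 calls became 92 without the block, 0 without the trend (5290 at an unadjusted p under 0.05), and 0 to 257 with an array left out. With low signals raised to 5.52 units, 1 member was past 2-fold in both lines in place of 2. With a line left out, 2 to 3 members were past 2-fold in the other line. Casp9 changed by 0.38 over the mean of its probe sets, and from -0.45 to 0.15 with a line or array left out. Fas ranged from -0.75 to 3.44 with a line or array left out, and Tnfrsf10b was at -0.12 without line 8534. The log2 differences of the other 7 members kept their sign under the alternatives run. Casp1, Casp4, Fas, Tnfrsf10b and Tnfrsf11b fell out of the fit with a filter at the median. Diablo, Tnfrsf21, Tnfrsf11b, Parp1 and Casp8ap2 also lost their calls without the block, without the trend and with an array left out. Signals near background limit the folds of Casp1, Casp4 and Fas in line 8542, and 2 lines limit every error.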
